A study of Brassica rapa subsp. chinensis with 2 samples.

Results

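The genes described here are the xyloglucan endotransglucosylase/hydrolases (XTHs) and the expansins of Brassica rapa, measured in stems of the ‘CX001’ and ‘FT’ lines. They are the rows of the gene table whose best Swissprot protein match is named a xyloglucan endotransglucosylase or an expansin. The names alone chose them, and no expression value was used. Of 33087 genes in the table, 90 met the rule, 44 XTHs and 46 expansins. The expansins comprised 34 of class A (EXPA), 7 of class B (EXPB), 2 expansin-like A (EXLA) and 3 expansin-like B (EXLB) genes. Gene names are those of the matched protein, mostly from Arabidopsis thaliana, so several B. rapa genes can carry 1 name.

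‘CX001’ is a wax-less doubled-haploid line of flowering Chinese cabbage and ‘FT’ is a doubled-haploid line of Chinese cabbage with a waxy surface. Per the paper, germinated seeds were vernalized in the cold and the plants were grown in a greenhouse. No other treatment is named. The stems were taken at bolting, and 3 libraries of each line, 6 altogether, were sequenced. Each line is a single homozygous genotype of a different crop type. The wax phenotype and the other differences between the 2 genotypes therefore cannot be told apart. The BraA09g066480.3C gene, the CER1 homologue that the study mapped, had a line mean of 16922 normalized read counts in ‘FT’ and 14.3 in ‘CX001’.

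Growing plant cells enlarge because their walls yield to turgor. Xyloglucan is a hemicellulose that coats and tethers cellulose microfibrils in the walls of dicots. XTHs cut a xyloglucan chain and join the new end to another chain, and some hydrolyse the chain instead. Expansins have no hydrolytic activity. Class A and B expansins loosen the contact between cellulose and matrix polysaccharides at acidic pH, whereas no wall-loosening activity has been established for the expansin-like proteins. All 44 XTH genes carried the gene ontology terms for carbohydrate metabolic process and for hydrolysis of O-glycosyl compounds. All 46 expansin genes carried the term extracellular region, 33 carried plant-type cell wall organization and 11 carried sexual reproduction.

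The table gives the mean of the normalized read counts of a line. Because each mean is a sum of whole reads weighted by 3 known steps, the reads of the 3 libraries could be worked out from it, and each member had a single solution. The libraries are called a, b and c within a line, and their values are always given in that order. Reads per library over the genes worked out ranged from 13274686 to 14953883. Libraries of 1 line correlated at r from 0.949 to 0.977 across genes on the log2 scale, and libraries of different lines at r from 0.734 to 0.773. A gene was called where the line means differed by at least 2-fold and the higher mean was at least 10. A called gene is said to have risen or fallen in ‘CX001’ only where limma also gave an adjusted p under 0.05. The sources do not say whether the 3 libraries came from separate plants, so a p-value here rests on the variation among these libraries alone, which may be technical. In bulk stems, fewer cells of a type and less RNA per cell cannot be told apart.

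The stem label was compared with marker genes. None of the 5 root markers reached a mean of 10 in either line, and all 5 were at 0 in ‘FT’ except 1 copy of CASP1 at 0.351. Of 11 floral organ genes, 2 reached 10. All 7 phloem and all 5 epidermis markers did, as did 10 of 12 xylem markers. Of the 10 xylem markers, 5 rose and 0 fell in ‘CX001’, or 50% and 0% beside 14.6% and 16.0% of all genes. The summed xylem level was 3966 to 5480 across the ‘FT’ libraries and 25029, 13541 and 6519 in ‘CX001’ a, b and c. The part of these differences in the results below was not tested.

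Of the 90 genes, 73 reached the minimum, 34 XTHs and 39 expansins. The 10 XTHs below it had means of at most 7.56, and the 7 expansins below it had means of at most 5.23. Among the 34 XTHs, 22 were called higher in ‘CX001’ and 0 lower. Over all 25993 genes at the minimum, 16.7% were called higher and 17.4% lower. With the limma threshold added, 20 XTHs rose and 0 fell, against 14.6% and 16.0% of 25780 genes. At an unadjusted limma p under 0.05 and any fold, 21 XTHs were higher in ‘CX001’ and 1 lower. Over all 25780 genes, 7292 were higher and 7236 lower. The 1 lower XTH also had an adjusted p under 0.05, within the 2-fold limit. Of the 22 called XTHs, 3 reached the minimum in ‘CX001’ only, so a call of these could only be higher. The other 31 XTHs reached it in both lines, and 19 of these were called. The median log2 ratio of ‘CX001’ to ‘FT’ was 3.00 over the 34 XTHs and 0.01 over all genes at the minimum. The difference was at least 4-fold in 18 XTHs and at least 10-fold in 16. The shares of all genes at these 2 folds were not worked out. Library values of the lines did not overlap in 21 XTHs with higher ‘CX001’ values and in 1 with lower values, where 29.9% and 29.3% of all genes did so.

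The expansins divided between the directions. Of 39 at the minimum, 8 were called higher and 7 lower, and 24 lay within 2-fold. The shares of 20.5% and 17.9% were near those of all genes. With limma, 7 rose and 7 fell, or 17.9% each way. Of the 8 called higher, 3 reached the minimum in ‘CX001’ only. The median log2 ratio was −0.21. Another 8 expansins and 2 XTHs passed the limma threshold within the 2-fold limit. At any fold, 11 expansins passed higher and 11 lower of 39, where 24.9% and 24.5% of all genes did so.

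**Figure D1:**
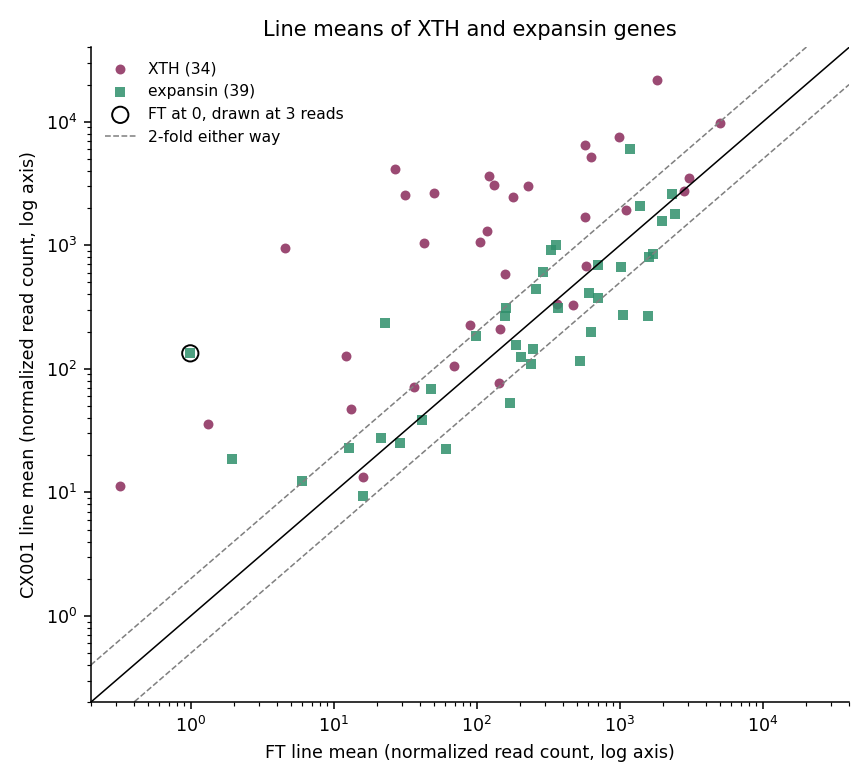
Line means of the 34 XTHs and 39 expansins at the minimum, ‘FT’ on the x axis and ‘CX001’ on the y axis, both in normalized read counts on log axes, with 1 point per gene. The solid line marks equal means and the dashed lines a 2-fold difference. The XTHs (circles) lie on or above the equal line except 5, with 22 beyond the upper dashed line, and the expansins (squares) lie on both sides.

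Of the 22 called XTHs, 11 matched Arabidopsis XTH12 to XTH26, the second large group of that family. Of its 21 B. rapa genes, 15 reached the minimum and 11 rose, or 73.3% beside 14.6% of all genes. The median log2 ratio was 3.46. The BraA08g009760.3C gene (XTH15) had 33.7, 21.2 and 25.99 normalized read counts in ‘FT’ and 3750.3, 3976 and 4601 in ‘CX001’. These were the most even values among the genes that differed over 100-fold, with no overlap between lines. The ratio of means was 152 with a 95% counting interval of 124 to 194, and limma gave a log2 difference of 7.22 ± 0.19 (SE) with an adjusted p of 6.54e-07.

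BraA07g009370.3C (XTH16) had 939, 389.99 and 547 counts in ‘FT’ and 5693, 5649 and 4301 in ‘CX001’. The ratio was 8.34 with an adjusted p of 9.04e-05.

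The 2 XTH22 genes at the minimum differed less between the lines. XTH22 is known as TCH4 in Arabidopsis, where touch and brassinosteroid induce it. BraA02g012200.3C had 7754, 2192 and 4983 counts in ‘FT’ and 8167, 16506 and 4781 in ‘CX001’. The lines overlapped, the means differed by 1.97-fold and the adjusted p was 0.164. BraA10g015660.3C had 131, 32.7 and 106 counts in ‘FT’ and 206, 324 and 151 in ‘CX001’. It rose by 2.53-fold with an adjusted p of 0.0429. The call was lost without ‘FT’ b (1.92-fold, adjusted p 0.0783), ‘FT’ c (0.06), ‘CX001’ a (0.0871) or ‘CX001’ b (1.99-fold, adjusted p 0.146). The 2 XTH23 genes also overlapped between lines and lay within 2-fold.

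**Figure D2:**
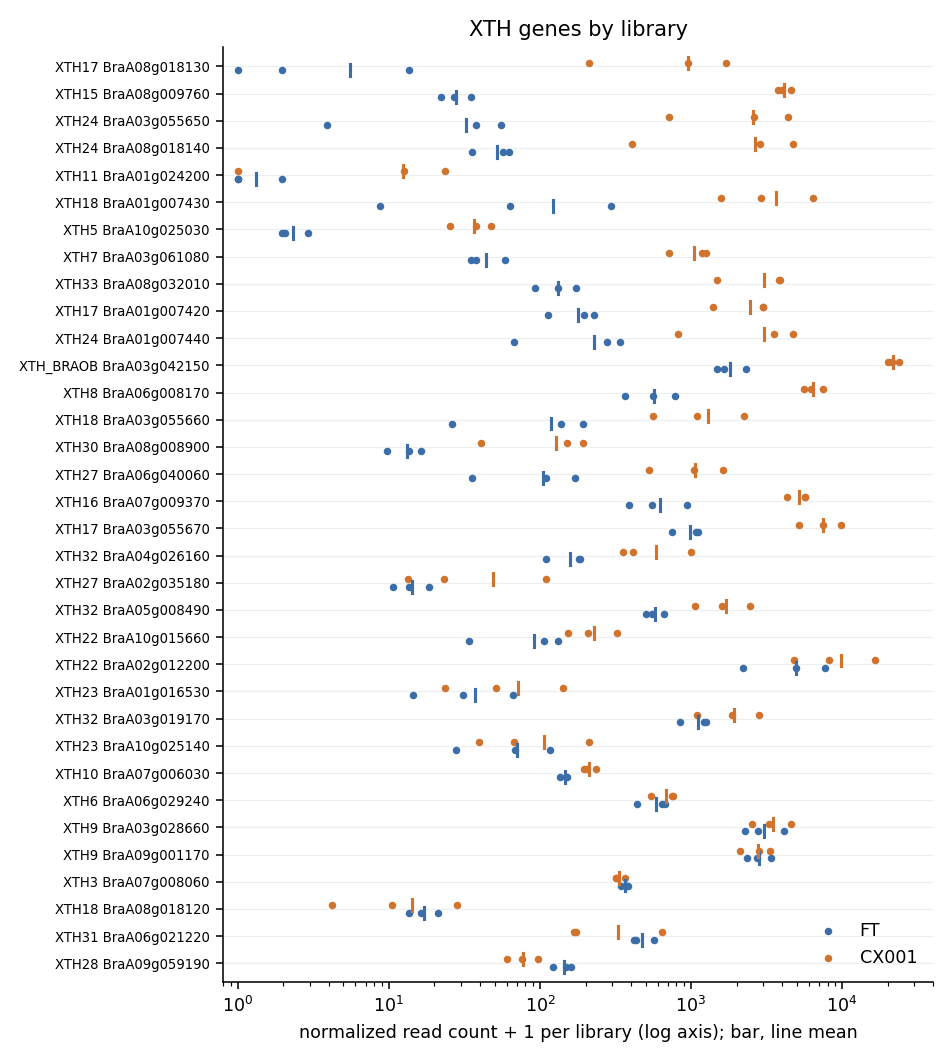
Normalized read count plus 1 of each of the 34 XTHs in the 3 libraries of ‘FT’ and of ‘CX001’ (points, log axis), with the line mean as a bar, ordered by the ratio of means. In the upper 10 genes, except XTH11, the lines are separated by a wide gap, whereas the lines overlap in most of the lower 12.

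XTH18 and XTH24 are neighbours in Arabidopsis. In B. rapa, genes matching XTH17, XTH18 and XTH24 lay next to each other at 3 places. XTH24 was first described in Arabidopsis as the meristem-expressed gene MERI-5. In the B. rapa V3.0 coordinates of the table, the genes occupied bases 3556307 to 3567130 of chromosome A01, 29083166 to 29093908 of A03 and 14434600 to 14451851 of A08. No other gene of the table lay between them. How reads matching more than 1 copy were counted is not given in the sources used here, so values of these copies are uncertain where their sequences coincide.

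Of these 9 genes, 8 rose in ‘CX001’. On A08, BraA08g018130.3C (XTH17) had 12.6, 0.963 and 0 counts in ‘FT’ and 948, 1708 and 209.5 in ‘CX001’. Its ratio of 211 had a counting interval of 129 to 416 and a limma log2 difference of 7.87 ± 1.045 (SE, adjusted p 0.000543). The ratio was 962 without ‘FT’ a, 140.3 without ‘FT’ c and 128 without ‘CX001’ b. Next to it, BraA08g018140.3C (XTH24) had 61.1, 34.7 and 55.8 counts in ‘FT’ and 4749.7, 2838 and 404 in ‘CX001’. The ratio of 52.7 was 32.1 without ‘CX001’ a. The lines were far apart in both genes, although the ‘CX001’ libraries themselves spanned 8.15-fold in the first and 11.8-fold in the second.

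The third A08 gene, BraA08g018120.3C (XTH18), did not share this difference. It had 12.6, 15.4 and 20.2 counts in ‘FT’ and 3.21, 27.02 and 9.44 in ‘CX001’, with an adjusted p of 0.44. The named match is the best Swissprot protein, and the table's second annotation also gives XTH18 for the BraA08g018130.3C gene.

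On A01, BraA01g007430.3C (XTH18) had 293, 7.70 and 62.6 counts in ‘FT’ and 2916, 6444 and 1569 in ‘CX001’, a ratio of 30.1 (adjusted p 0.00344). That ratio was 104 without ‘FT’ a and 18.5 without ‘CX001’ b. Its neighbours BraA01g007420.3C (XTH17) and BraA01g007440.3C (XTH24) had ratios of 13.8 and 13.3, with adjusted p of 9.2e-05 and 0.00476. On A03, BraA03g055650.3C (XTH24) had 36.9, 2.89 and 53.9 counts in ‘FT’ and 4378, 2622 and 715 in ‘CX001’. Its ratio of 82.4 (adjusted p 0.00108) was followed by 11.03 in BraA03g055660.3C (XTH18) and 7.62 in BraA03g055670.3C (XTH17). The ratio of 82.4 was 129 without ‘FT’ c and 53.4 without ‘CX001’ a, and that of 11.03 was 7.02 without ‘CX001’ b. BraA03g055670.3C had the highest level of the 9, at 978 counts in ‘FT’ and 7456 in ‘CX001’. Within 1 name the ratios thus ranged from 7.62 to 211 among the XTH17 genes and from 0.822 to 30.1 among the XTH18 genes.

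**Figure D3:**
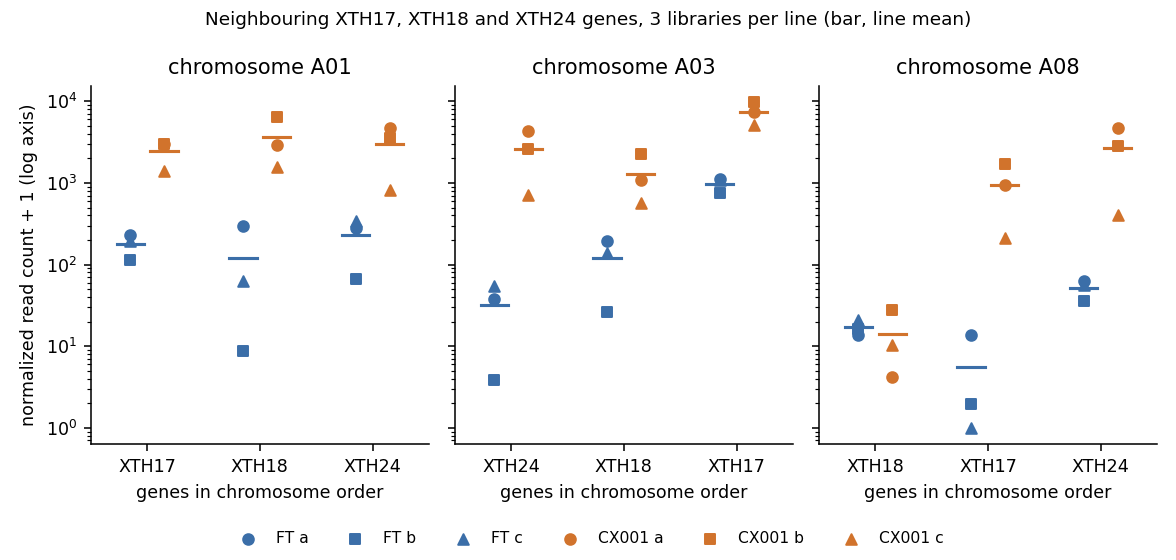
Normalized read count plus 1 (log axis) of the XTH17, XTH18 and XTH24 genes in their order on chromosomes A01, A03 and A08, with circles, squares and triangles for libraries a, b and c and a bar for the line mean. In 8 of the 9 genes every ‘CX001’ library lies above every ‘FT’ library, XTH18 on A08 being the exception, and ‘CX001’ c is the lowest ‘CX001’ library in the 8.

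The libraries of a line were uneven in this group. Library b was the lowest of ‘FT’ in 13 of the 14 XTH12 to XTH26 genes with an ‘FT’ mean of at least 10, and ‘CX001’ c was the lowest of its line in 13 of 15. Over all genes these libraries were lowest in 36.6% and 36.6%. The highest ‘FT’ library exceeded the lowest by a median of 3.72-fold in the group and 1.34-fold over all genes. In ‘CX001’ the medians were 4.11-fold and 1.39-fold. Expansin A genes were closer to all genes, at 1.43-fold in ‘FT’ and 1.69-fold in ‘CX001’. The summed xylem markers were likewise lowest in ‘FT’ b and ‘CX001’ c, but highest in ‘FT’ c and ‘CX001’ a. The summed XTH12 to XTH26 genes were highest in ‘FT’ a and ‘CX001’ b. The summed phloem and photosynthetic markers were also lowest in ‘FT’ b, but not in ‘CX001’ c. The photosynthetic sums leave out genes whose reads were not worked out. Only 9 of the 22 photosynthetic markers at the minimum were worked out in both lines. The part of these markers in the spread was not tested. The 2-fold call was made in 21 to 25 XTHs whichever library was left out. Of the 20 XTHs that rose, 19 kept the call without each library in turn, all but the XTH22 gene BraA10g015660.3C.

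Among the matches to XTH1 to XTH11, the first large group of the Arabidopsis family, 9 of 10 genes reached the minimum. Of these, 3 rose, or 33.3% beside 14.6% of all genes. BraA03g061080.3C (XTH7) had 58.0, 33.7 and 36.6 counts in ‘FT’ and 1257, 711 and 1179 in ‘CX001’. The ratio was 24.5, with a log2 difference of 4.58 ± 0.28 (SE) and an adjusted p of 1.29e-05. BraA06g008170.3C (XTH8) had 781, 366 and 557 counts in ‘FT’ and 5571, 7473 and 6235 in ‘CX001’, a ratio of 11.3 (adjusted p 2.58e-05). BraA10g025030.3C (XTH5) was scarce in ‘FT’, with 1.054, 1.93 and 0.962 counts against 36.4, 46.3 and 24.5. The lines did not overlap in any of these 3 genes. BraA01g024200.3C (XTH11) was called from 0, 0 and 0.962 counts in ‘FT’ and 22.5, 11.6 and 0 in ‘CX001’. With 1 ‘FT’ read in all, its ratio of 35.4 had a counting interval of 5.53 to 1343, its lines overlapped and its adjusted p was 0.0997.

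The 2 XTH9 genes stood beside these with little difference. In Arabidopsis, XTH9 is expressed in shoot apices. BraA03g028660.3C had 4091, 2759 and 2282 counts in ‘FT’ and 3296, 2548 and 4585 in ‘CX001’. Its log2 difference was 0.19 with a 95% interval from −0.42 to 0.81. BraA09g001170.3C had means of 2819 and 2754 counts, and its interval ran from −0.51 to 0.42. This gene also carries an iron-sulfur annotation, so its model may join 2 genes. XTH3 and XTH6 were also within 2-fold, and XTH10 was higher by 1.46-fold with an adjusted p of 0.0248.

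The remaining Arabidopsis names, XTH27 to XTH33, form the third group. XTH27 in Arabidopsis acts in tracheary elements of leaf veins, and XTH33 is predicted to be held at the plasma membrane. BraA08g032010.3C (XTH33) had 173, 91.5 and 129.9 counts in ‘FT’ and 3801, 3869.7 and 1478 in ‘CX001’, a ratio of 23.2 (adjusted p 6.28e-05). BraA06g040060.3C (XTH27) rose by 10.2-fold and BraA08g008900.3C (XTH30) by 10.3-fold. The second XTH27 gene, BraA02g035180.3C, was called but overlapped between lines, with 12.6, 9.63 and 17.3 counts in ‘FT’ and 108, 22.2 and 12.3 in ‘CX001’ (adjusted p 0.194). XTH31 and XTH32 belong to the branch for which xyloglucan hydrolysis has been shown in Arabidopsis. Of the 3 XTH32 genes, 2 rose, by 3.73-fold (2.42-fold without ‘CX001’ c) and 2.98-fold, and the third had a ratio of 1.74 (adjusted p 0.0978). The XTH31 gene had means of 471 in ‘FT’ and 327 in ‘CX001’ with overlapping lines. XTH28, which acts in stamen filament growth in Arabidopsis, had the lowest ratio of the XTHs at the minimum. BraA09g059190.3C (XTH28) had 120, 148 and 159 counts in ‘FT’ and 74.98, 59.8 and 95.3 in ‘CX001’. Its means differed by less than 2-fold, and limma gave a log2 difference of −0.90 ± 0.24 (SE, adjusted p 0.0158). These third-group genes other than XTH33 were picked for mention after their values were seen.

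The XTH with the highest level in ‘CX001’ was BraA03g042150.3C, whose best match is an XTH of Brassica oleracea. It had 2295, 1480.02 and 1653 counts in ‘FT’ and 21328, 23690.3 and 20062 in ‘CX001’. The ratio was 11.99 with a log2 difference of 3.61 ± 0.18 (SE, adjusted p 5.85e-06). Its libraries were among the more even ones, and the lines were far apart.

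Levels of different genes were compared as line mean per gene length, scaled so that all genes of a line sum to 1000000 (called TPM here). The XTHs together made up 1300.2 TPM in ‘FT’ and 6128 in ‘CX001’, a ratio of 4.71. The expansins together made up 1469.6 and 1541. In ‘FT’, the XTH22 gene BraA02g012200.3C was first of the 90 genes, at 354 TPM, followed by the XTH9 genes BraA03g028660.3C (207) and BraA09g001170.3C (156). The expansin genes BraA07g019250.3C (EXPA6) at 150.1 and BraA05g007910.3C (EXPA3) at 128 came next. In ‘CX001’, BraA03g042150.3C was first at 1474, followed by BraA02g012200.3C at 710.2 and BraA03g055670.3C (XTH17) at 526. BraA06g008170.3C (XTH8) at 431 and BraA06g044870.3C (EXLA2) at 382 came next. The order of EXPA3 and its next gene in ‘FT’, EXPA15 at 127, was closer than the spread of their libraries. The first 3 XTHs held 55.2% of the XTH level in ‘FT’ and 44.2% in ‘CX001’.

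**Figure D4:**
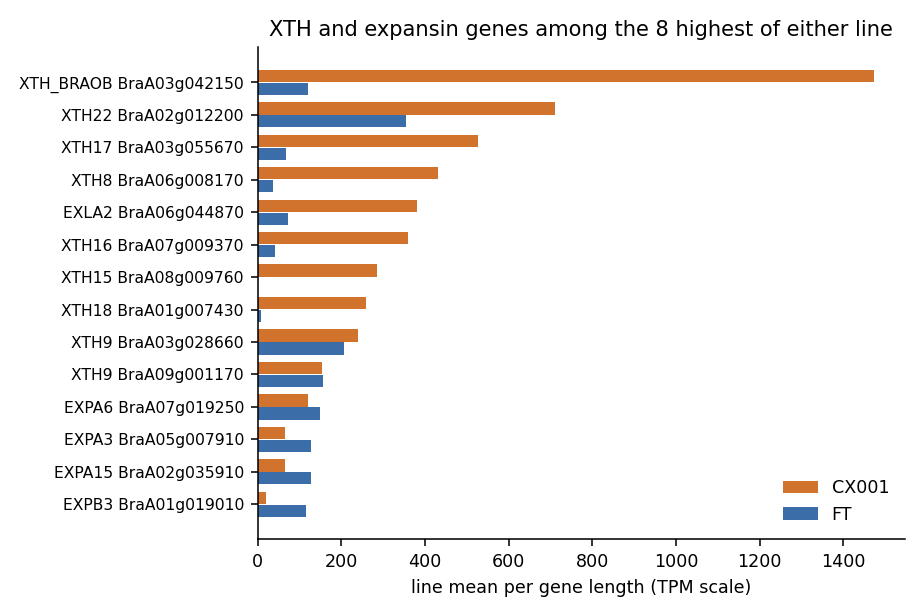
Line mean per gene length in TPM, for the XTH and expansin genes among the 8 highest of ‘FT’ or ‘CX001’, with 1 bar per line. BraA03g042150 is the longest bar at 1474 in ‘CX001’ and 121 in ‘FT’, and the 2 XTH9 genes have bars of like length in both lines.

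Class A expansins are the acid-growth proteins of dicot walls. Of 34 EXPA genes, 29 reached the minimum, with a median log2 ratio of −0.24. Of these, 3 rose and 4 fell, or 10.3% and 13.8% beside 14.6% and 16.0% of all genes. Within 2-fold lay 22 of the 29, beside 17113 of the 25993 genes in all. At any fold, 7 of the 29 EXPA genes passed limma higher in ‘CX001’ and 7 lower, where 24.9% and 24.5% of all genes did so. BraA05g031730.3C (EXPA12) was at 0 in all 3 ‘FT’ libraries and at 166, 183 and 51.0 counts in ‘CX001’. Against 3 reads in the whole line, set in place of the count of 0, it was 134-fold higher (adjusted p 3.62e-05). Its counting interval began at 108. BraA09g012770.3C (EXPA18) had 1.054, 0.963 and 3.85 counts in ‘FT’ and 18.2, 19.3 and 17.9 in ‘CX001’ (adjusted p 0.00163), a ratio of 9.45 that was 18.3 without ‘FT’ c. EXPA18 acts in root hairs of Arabidopsis. BraA06g039430.3C (EXPA15) rose by 2.74-fold. These last 2 genes were picked for mention after their values were seen.

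Both EXPA1 genes fell in ‘CX001’. EXPA1 acts in the opening of stomata in Arabidopsis. BraA02g019240.3C had 879, 1001 and 1261 counts in ‘FT’ and 387, 181 and 258 in ‘CX001’. The mean was 3.80-fold lower, with a log2 difference of −1.98 ± 0.27 (SE, adjusted p 0.000608). BraA07g034440.3C had 153, 292 and 276 counts in ‘FT’ and 90.0, 123 and 116 in ‘CX001’, 2.19-fold lower (adjusted p 0.0128). Its call was lost without ‘FT’ b (1.96-fold, adjusted p 0.0526) or ‘FT’ c (adjusted p 0.056).

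BraA09g038640.3C (EXPA10), a gene active in leaf growth and pedicel abscission in Arabidopsis, fell 4.52-fold. It had 411, 675 and 494 counts in ‘FT’ and 86.8, 131.2 and 131.2 in ‘CX001’ (adjusted p 0.000223). BraA07g015910.3C (EXPA11) had 584, 548 and 749.8 counts in ‘FT’ and 285, 126 and 189 in ‘CX001’, 3.14-fold lower (adjusted p 0.00162). The lines did not overlap in either gene. The other 2 EXPA11 genes lay within 2-fold.

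The EXPA genes of highest level moved by less than 2-fold. BraA07g019250.3C (EXPA6) had 2199.96, 2009.6 and 1729 counts in ‘FT’ and 1199, 1357 and 2153 in ‘CX001’ (adjusted p 0.187). The highest EXPA gene of ‘CX001’ was BraA09g003690.3C (EXPA5), at 163 TPM beside 107 in ‘FT’. It had 1505, 1164 and 1477 counts in ‘FT’ and 2121, 1584 and 2514 in ‘CX001’ (adjusted p 0.037). The paper gives this name to the only gene in the sequence that replaces the lost CER1 region of ‘CX001’. Any link of that replacement to the level of this gene was not tested. Just short of a 2-fold difference were BraA05g007910.3C (EXPA3), 1.99-fold lower in ‘CX001’ with an adjusted p of 0.00397, and BraA02g035910.3C (EXPA15), 1.98-fold lower with an adjusted p of 0.0176. Just past it were BraA07g000110.3C (EXPB1) at 2.095-fold and BraA07g024330.3C (EXPB5) at 2.06-fold, both higher in ‘CX001’. The EXPA15 pair thus had log2 ratios of 1.45 and −0.99.

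Class B expansins are best known as the group 1 pollen allergens of grasses, and Brassica has few. Of the 7 EXPB genes, 5 reached the minimum, 1 rose and 2 fell, or 20% and 40% beside 14.6% and 16.0% of all genes. BraA01g019010.3C (EXPB3) had 1457, 1741 and 1480.3 counts in ‘FT’ and 200.3, 137 and 459 in ‘CX001’, 5.88-fold lower, with a log2 difference of −2.73 ± 0.38 (SE, adjusted p 0.000686). Without ‘CX001’ c it was 9.24-fold lower. The other EXPB3 gene, BraA03g054290.3C, had means of 699 and 373 counts, within 2-fold, and an adjusted p of 0.00886. BraA05g004880.3C (EXPB2) had 63.2, 76.1 and 42.4 counts in ‘FT’ and 24.6, 14.5 and 28.3 in ‘CX001’, 2.69-fold lower (adjusted p 0.0141), and lost its call without ‘FT’ b (adjusted p 0.0561). A second EXPB2 gene nearby on A05, BraA05g004910.3C, had means of 2.34 and 0. BraA07g000110.3C (EXPB1) had 331, 247 and 298 counts in ‘FT’ and 459.5, 531 and 845 in ‘CX001’ (adjusted p 0.0078), and its difference was 1.94-fold without ‘FT’ b and 1.70-fold without ‘CX001’ c. BraA07g024330.3C (EXPB5) overlapped between lines (adjusted p 0.242).

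The expansin-like genes included the highest expansin level of ‘CX001’. BraA06g044870.3C (EXLA2) had 2181, 332 and 990.4 counts in ‘FT’ and 5158, 8770.1 and 4017 in ‘CX001’. The ratio was 5.12 with a log2 difference of 2.66 ± 0.61 (SE, adjusted p 0.00775), and it was 9.05 without ‘FT’ a. The second EXLA2 gene, BraA01g000070.3C, had 596, 163 and 319.6 counts in ‘FT’ and 855, 1532 and 638 in ‘CX001’. It rose by 2.81-fold (adjusted p 0.0242), with adjusted p of 0.0695, 0.0671, 0.0514 and 0.0884 without ‘FT’ b, ‘FT’ c, ‘CX001’ a and ‘CX001’ b. It lies near the start of A01 beside BraA01g000050.3C (EXPA20), which had means of 203 and 126 counts. Both EXLA2 genes, like most of XTH12 to XTH26, were lowest in ‘FT’ b and ‘CX001’ c and highest in ‘CX001’ b.

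EXLB1 was the single name with genes called in both directions. BraA01g019520.3C had 36.9, 5.78 and 25.99 counts in ‘FT’ and 179.96, 453 and 76.5 in ‘CX001’, a ratio of 10.3 (adjusted p 0.00903) that was 5.602 without ‘CX001’ b. BraA03g047260.3C had 157, 167 and 184 counts in ‘FT’ and 25.7, 107 and 24.5 in ‘CX001’, 3.22-fold lower (adjusted p 0.0133) and 6.73-fold lower without ‘CX001’ b. BraA03g047290.3C, which lies close to the latter on A03 with 1 gene between, had means of 41.1 and 38.9 counts.

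**Figure D5:**
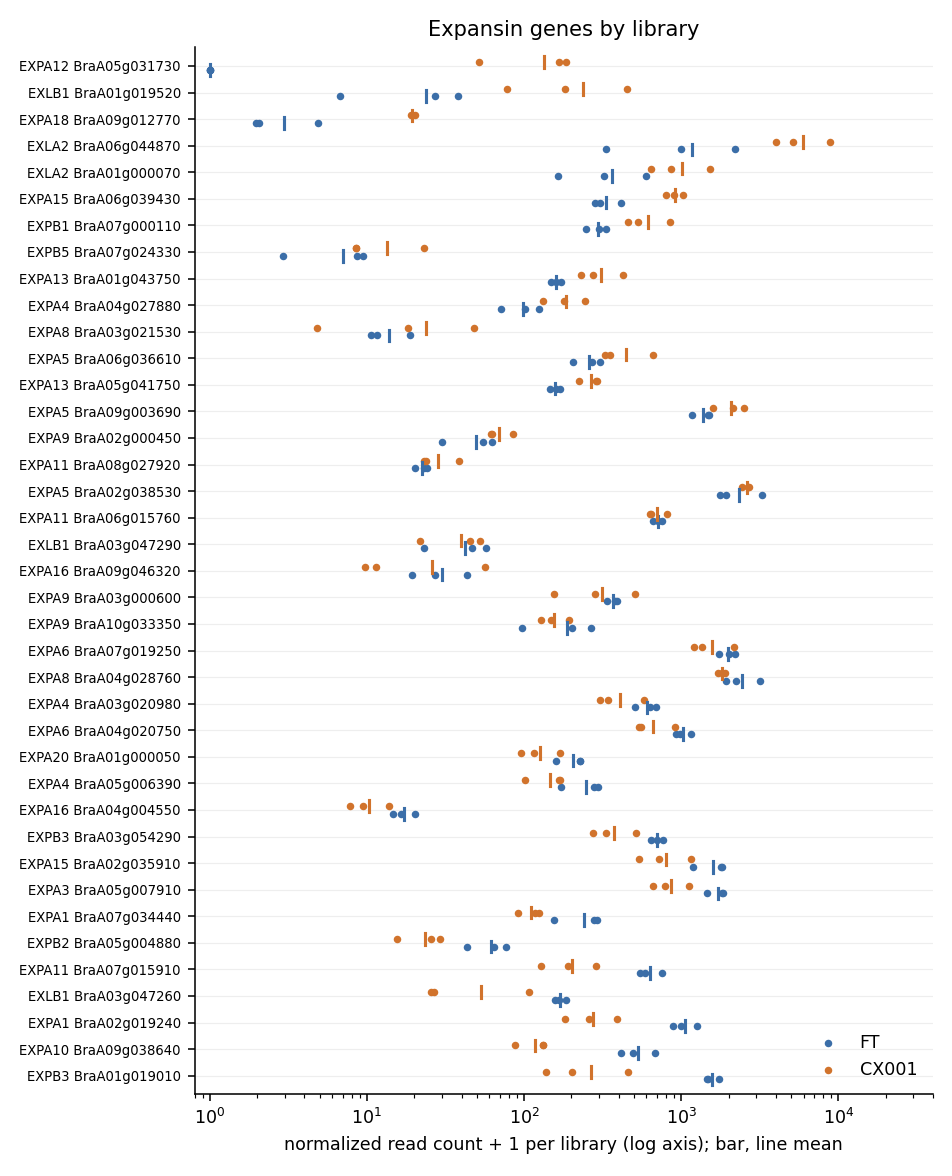
Normalized read count plus 1 of each of the 39 expansins in the 3 libraries of ‘FT’ and of ‘CX001’ (points, log axis), with the line mean as a bar, ordered by the ratio of means. Genes at the top such as EXPA12 and EXLB1 on A01 are higher in ‘CX001’, those at the bottom such as EXPB3 and EXPA10 are lower, and the points of the lines interleave in the middle.

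Over both families, 21 protein names were shared by at least 2 genes at the minimum. In 11 of these the log2 ratios of the copies spanned more than 1, and in 9 no copy was called. The same counts for names outside these families were not worked out. The widest spans were 5.19 for XTH18, 5.06 for EXLB1 and 4.79 for XTH17, and the narrowest was 0.20 for EXPA13. In all, 8 groups of neighbouring genes, with at most 5 other genes between members, held 21 of the 90 genes. The group of 4 XTHs on A02 (5942509 to 5959944) held no called gene, and its XTH22 gene BraA02g012200.3C was the only 1 of the 4 above the minimum. Called XTHs lay on 9 of the 10 chromosomes, A09 being the exception with 2 XTHs.

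A list of 29 genes was drawn up from the Swissprot names of enzymes that make xyloglucan, galactoside fucosyltransferases included. The names do not show that each acts on xyloglucan. Of the 29, 27 reached the minimum and the median log2 ratio was 0.64. In ‘CX001’ 6 rose and 1 fell, or 22.2% and 3.70%, beside 14.6% and 16.0% of all genes. At any fold, 16 of the 27 passed limma higher and 2 lower, beside 24.9% and 24.5% of all genes. Library values did not overlap in 17 with higher and 3 with lower ‘CX001’ values, where 29.9% and 29.3% of all genes did so. BraA06g014330.3C (XXT4, a xyloglucan xylosyltransferase) had 11.6, 9.63 and 15.4 counts in ‘FT’ and 146, 188 and 143 in ‘CX001’, a ratio of 13.0 (adjusted p 4.06e-05). BraA09g012310.3C (MUR3, which adds galactose to xyloglucan side chains) had 165, 159.8 and 147 counts in ‘FT’ and 814, 1081 and 761 in ‘CX001’, a ratio of 5.62 (adjusted p 1.68e-05). Of 8 genes listed by the names of enzymes that trim xyloglucan side chains, 7 were fitted. Of these, 0 rose and 2 fell, or 0% and 28.6% beside 14.6% and 16.0% of all genes. Over all 8, however, the median log2 ratio was 0.20, with 5 ratios above 0 and 3 below. Their summed level was 587 TPM in ‘FT’ and 731 in ‘CX001’. BraA07g033140.3C (FUCO3, an alpha-fucosidase) fell 2.27-fold and BraA02g018520.3C (XYL1, an alpha-xylosidase) fell 2.18-fold. At an adjusted p under 0.05 and any fold, 1 of the 7 trimming genes fitted was higher and 2 were lower, beside 24.9% and 24.5% of all genes.

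Endoglucanases cut glucan chains. Of 34 genes, 28 reached the minimum and 26 were fitted, of which 6 rose and 5 fell, or 23.1% and 19.2% beside 14.6% and 16.0% of all genes. BraA04g005360.3C (GUN9) was at 0 in ‘FT’ and at 101, 146 and 164 counts in ‘CX001’, 138-fold higher against 3 reads set in place of 0. The GUN9 copies BraA02g020430.3C and BraA02g020420.3C, picked for mention after their values were seen, fell 44.4-fold and 37.6-fold (adjusted p 0.00018 and 0.000555). BraA07g016100.3C (GUN2) had 4.22, 0.963 and 7.70 counts in ‘FT’ and 706, 56.0 and 12.3 in ‘CX001’ (adjusted p 0.0278), so that 1 library carried most of its mean. Plasma membrane proton pumps acidify the wall, which activates expansins. Of 20 pump genes, 13 reached the minimum and 12 were fitted. Of these, 2 rose and 0 fell, or 16.7% and 0% beside 14.6% and 16.0% of all genes. The 2 that rose, both PMA2, were scarce, with means of 2.31 and 21.0 counts in BraA03g055530.3C and 15.02 and 40.6 in BraA08g018210.3C. The EG45-like gene BraA07g002050.3C (EGC2), a relative of the expansins, had means of 96.7 and 169 counts with overlapping lines.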

How the data were processed

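Stem RNA of 2 lines was sequenced on an Illumina Hiseq4000 as paired-end reads, 3 libraries per line. Per the methods, the authors aligned reads with HISAT2 and ran DESeq2; the notes also name TopHat2. The signal values are the authors' deposited line means of read counts divided by size factors. The authors' columns of fold change, p-values, adjusted p-values and direction hold their own comparison and were not used.

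Each mean was searched for the only whole reads of 3 libraries that give it to 15 digits, up to a mean of 9000 and for 2 members above it. In all, 213 genes were not worked out. The plan had assumed line means only, with no test, so the library values and limma were added after the data were seen. Which labelled replicate each library is was not used. limma 3.58.1 in R 4.3.3 was fitted on log2(normalized count + 1) with an intensity trend, over 25780 genes with Benjamini-Hochberg adjustment, and was tested on simulated data. On this scale the change of low genes is understated. The simulated counts used a single setting of variation between libraries for all genes. That test therefore does not cover the wider library spread of the XTH12 to XTH26 genes. Counting intervals are 95% Clopper-Pearson on pooled reads and cover counting error only. They were computed in Python 3.11.15.

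Members and gene lists were chosen with earlier results of these data known. Named were the 10 largest and 10 smallest ratios among called members, the 5 highest levels per length in each line, members at 0 in 1 line, the 2 nearest either side of the fold, neighbours of called members and, of each other list, the 2 called genes of largest change or, with none called, of highest level. XTH16 and other genes beyond this were picked after their values were seen.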

Additional observations from a re-analysis of the deposited data

How the results depend on the processing

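Against the 37 calls as reported, a minimum of 4-fold left 24. XTHs called lower numbered 0 as reported, 1 at 1.5-fold, 3 with no minimum mean and 1 by limma with no fold minimum. Expansins called higher went from 8 to 13 at 1.5-fold, 4 at 4-fold, 13 with no minimum mean and 5 without the expansin-like genes. Expansins called lower went from 7 to 14 at 1.5-fold, 2 at 4-fold and 11 by limma with no fold minimum. The median log2 ratio of XTHs fell from 3.00 to 1.80 with no minimum mean, which adds genes with few reads, and to 2.28 with a pseudocount of 5. All other planned counts stayed within 1.5 times, and of 219 single-gene alternatives none reversed and 4 moved. With a pseudocount of 5 the log2 ratio was 4.79 instead of 7.07 in EXPA12, 2.69 instead of 4.77 in XTH5, 1.76 instead of 3.24 in EXPA18 and 1.62 instead of 5.15 in XTH11.

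With each library left out in turn, with and without limma, calls ranged from 29 to 44 over all members, from 19 to 25 for higher XTHs, from 0 to 1 for lower XTHs, from 5 to 11 for higher expansins and from 5 to 10 for lower expansins. The median log2 ratio ranged from 0.53 to 0.83 over all members, from 2.75 to 3.21 in XTHs and from −0.30 to −0.0048 in expansins, the last without ‘FT’ a. The cause was not tested. No paired analysis was possible because the library values worked out carry no replicate number. Genes with few reads, such as XTH11, are limited by depth.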
